A study of Mus musculus with 21 samples.

Results

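The tumor suppressor gene Trp53, which encodes p53, and 9 genes that p53 is known to activate are described here in murine pancreatic ductal adenocarcinoma (PDAC) cells that became resistant to the MEK inhibitor trametinib and were then taken off the drug. The 10 genes, Trp53, Mdm2, Cdkn1a, Ccng1, Eda2r, Zmat3, Trp53inp1, Phlda3, Perp and Aen, were taken by symbol from an RNA-seq table of 34478 genes, and each symbol had 1 row. The table covers primary cell lines #3, #4, #6, #7, #9 and #10, each grown from the tumor of a different mouse. By genotype, every sample is Trp53 loxP/loxP with Ptf1a wt/Cre, and the labels give no age. The Cre recombinase is driven by Ptf1a, a gene of the pancreatic epithelial lineage, and it cuts out the floxed segment of Trp53 in cells of that lineage. All groups therefore share the Trp53 deletion allele, and no sample with wild-type Trp53 serves as a reference for p53 activity. Parental cells (n = 6) had not met the drug. Resistant cells (n = 6) grew in trametinib at 100 times the IC50 of their line and were kept under it, so their state includes the drug itself. P12 cells (n = 6) came from the resistant cells after 12 passages in drug-free medium, and P5 cells (n = 3, lines #3, #7 and #9) after 5, although the description field of the P5 samples of lines #7 and #9 says 12. A line was sequenced once in each state, so the 6 lines are the replicates.

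p53 is a transcription factor that is held at a low level in unstressed cells, mainly because MDM2, the product of one of its own targets, marks it for degradation. DNA damage, oncogene activity and other stresses release p53, which then binds response elements near its targets and raises genes that stop the cell cycle, start apoptosis or repair DNA. The gene is lost or mutated in a large share of pancreatic cancers. The 9 targets examined here take up different parts of this program: feedback on p53 (Mdm2), arrest of the cell cycle (Cdkn1a, Ccng1), death signals and stress responses (Eda2r, Trp53inp1, Phlda3, Perp, Aen) and the handling of RNA (Zmat3). Most of them also answer to other factors, so their RNA level is not by itself a reading of p53.

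Since p53 acts through short response elements, the promoter sequences of RefSeq (build GRCm38.p6, 250 bases before to 50 bases after a transcription start) were searched with the p53 response element consensus, which is made of 2 half-sites of 10 bases without a spacer and reads the same on both strands. Of the 10 genes, 7 had at least 1 promoter sequence, with 9 windows in all. Zmat3, Trp53inp1 and Perp had no entry. The best matches of Cdkn1a and Ccng1 had 1 mismatch of 20 bases, and 0.0883% of all 32851 promoter windows held a match with 1 mismatch or none. That of Aen had 3 mismatches, and 6.29% of all windows held a match with 3 or fewer. The window of Trp53 itself held a match with 3 mismatches, and those of Mdm2, Phlda3 and Eda2r none with fewer than 5. The 3 matches are shown with 5 bases on either side, the 20 matched bases in capitals:
Cdkn1a: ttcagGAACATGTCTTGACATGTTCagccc
Ccng1: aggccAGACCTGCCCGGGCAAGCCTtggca
Aen: aagccGGGCTTGTCCGGGCAAGGAGcttcc
They lie at chr17:29090923-29090952 on the plus strand (Cdkn1a), chr11:40755457-40755486 on the minus strand (Ccng1) and chr7:78895932-78895961 on the plus strand (Aen). The matched bases begin at -51 from the upstream of the Cdkn1a transcription starts and at -195 from the Ccng1 start. RefSeq gives 2 starts for Aen, and the match begins at -121 from one and at 11 from the other. A second Cdkn1a window, 2790 bases downstream, held no match with fewer than 5 mismatches. A match describes the letters of the window and is not a measurement of binding. Elements outside these windows or with a spacer were not searched, so a window without a close match does not mean that the gene lacks an element.

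The values are normalized counts as the authors deposited them, on a scale that is comparable between samples but not between genes, since it is not divided by transcript length. From the spacing of the low values, 24.1 to 42.6 M reads (M for mega) stood behind a sample, and 3 reads corresponded to 2.31 to 4.07 normalized counts, a limit that covers counting error only. The tumor cell label was checked against epithelial markers. Keratin genes Krt8 and Krt19 and the cadherin gene Cdh1 had medians of 79653, 35795 and 30049 in parental cells, whereas Epcam was listed at 0 in 20 of 21 samples. Line #9 was low in the epithelial markers throughout. Their sum over 5 genes was 15800 in its parental sample and 644, 347 and 460 in its resistant, P5 and P12 samples, while the medians of all lines were 214848 in parental and 59155 in resistant cells. The summed level of 6 fibroblast markers ranged from 95.4 to 10377 in parental and from 1875 to 503969 in resistant cells. These sums moved with the states compared here, and their part in the results was not tested. From bulk RNA alone, fewer cells of a kind and less RNA per cell cannot be told apart. The paper reports that resistant cells shifted from an epithelial to a more mesenchymal state, with less CDH1 and more CDH2 protein. From genome sequencing of lines #3 and #9 it also reports that resistant cells expanded from a single tumor cell clone.

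Trp53 RNA was present in every sample and varied little. Trp53 had 288 to 391 normalized counts in parental cells (median 325), 178 to 367 in resistant cells (median 321) and 276 to 475 in P12 cells (median 331), and P5 cells had 441 in line #3, 348 in line #7 and 245 in line #9. The ranges of all states overlapped. The lowest value of all 21 samples was that of resistant line #9 and the highest that of P12 line #3, a 2.66-fold span. On the log2 scale the SD of Trp53 over the 21 samples was 0.30, at the 7.34th percentile of the 19300 genes tested. The resistant minus parental difference was -0.15 on the log2 scale (SE 0.21, 95% interval -0.58 to 0.28, n = 6 and 6, limma adjusted p = 0.686), and resistant values were higher than parental ones in 2 of 6 lines. The gene (ENSMUSG00000059552, chr11:69580359-69591873 of mm10, plus strand, up to 11 exons per transcript in GENCODE M21) has a single value in the table. RNA from exons outside the floxed segment and RNA of an intact allele are counted together in it. Parental line #3, with 334 normalized counts of Trp53, had the lowest sum of the 6 fibroblast markers among the parental samples, 95.4, with Pdgfrb, Col1a2 and Lum listed at 0 and 33.1 for Pdgfra, 42.5 for Col1a1 and 19.8 for Dcn. The part of stromal RNA in the Trp53 value was not tested. GENCODE M21 also annotates Trp53-ps (chr17:54419680-54420841), a processed pseudogene copied from Trp53 RNA. How reads that match both were divided was not analysed here, and the level of Trp53 is uncertain to that extent.

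**Figure D1:**
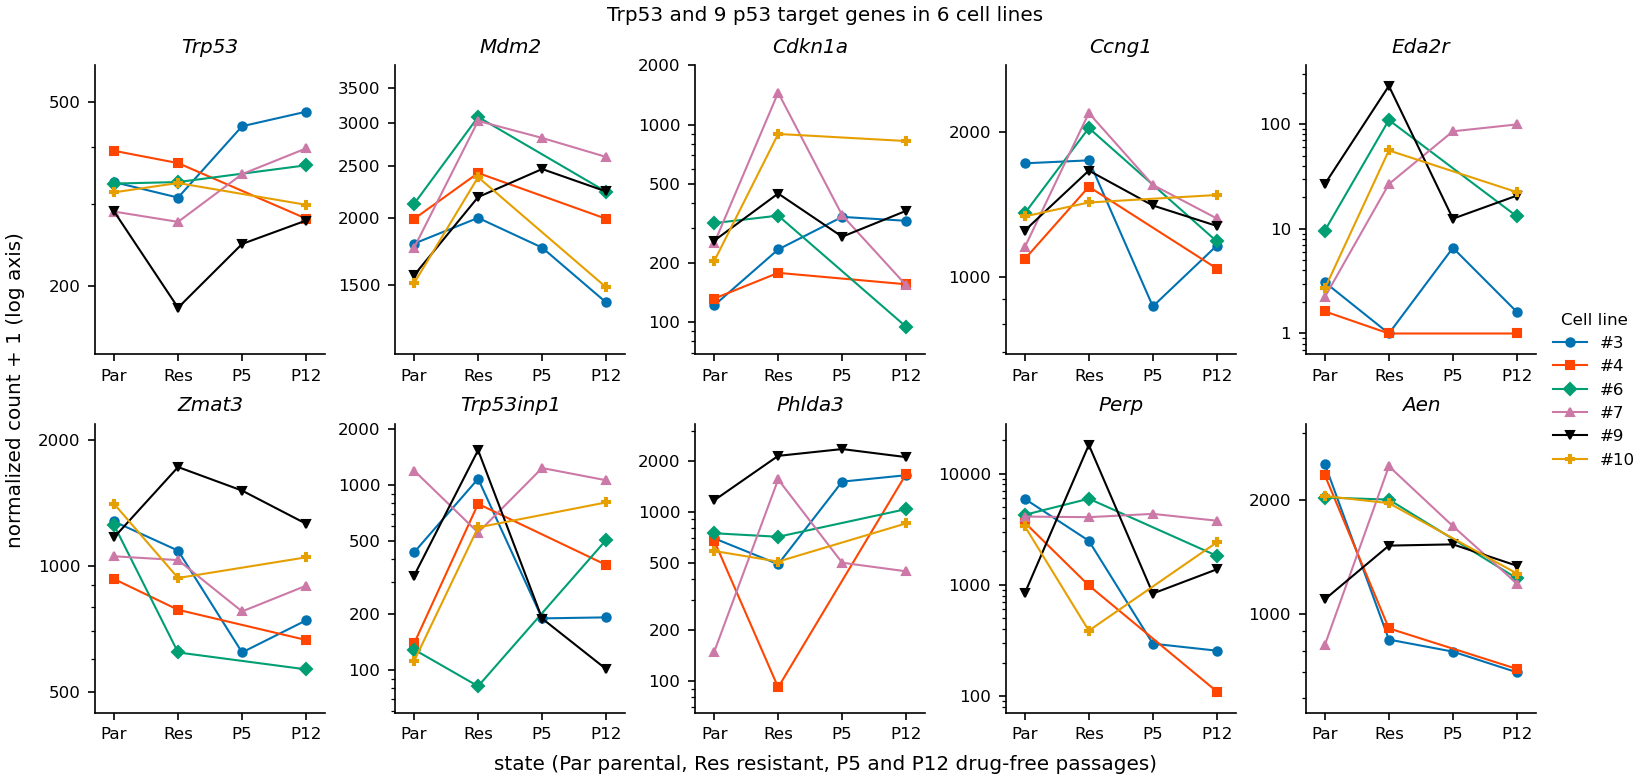
Normalized counts plus 1 (log axis, own scale in each panel) of Trp53 and the 9 targets by state, with 1 line and symbol per cell line. Trp53, Mdm2, Ccng1, Zmat3 and Aen each spanned 3.56-fold or less, whereas Perp spanned from 109 to 18080 and Eda2r from 0 to 230.

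The comparison of resistant with parental cells asked whether the p53 program was higher in cells that grow under MEK inhibition. Mdm2, Cdkn1a and Ccng1 were higher in resistant cells in 6 of 6 lines, but none of the 10 genes passed the threshold of a limma adjusted p below 0.01 with a log2 difference past 1 in either direction. That count of 0 of 10 stands beside 5.3% of all genes tested, and at an unadjusted p below 0.05 the count was 3 of 10 beside 29.2%. All 10 genes had passed the filter on low values, a normalized count of 10 in at least 3 samples. Eda2r did so through 11 of 21 samples, only 1 of them parental. The groups of parental and resistant samples overlapped for each of the 10 genes, while 5.99% of all genes had groups without overlap. A direction shared by all 6 lines was found for 3 of the 10 genes and for 18.5% of all genes. The median log2 difference of the 10 genes was 0.26, and that of all genes was -0.0049.

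Mdm2, the ubiquitin ligase that limits p53, ranged from 1510 to 2123 normalized counts in parental cells (median 1773) and from 1999 to 3084 in resistant cells (median 2402). The groups shared only a narrow band, set by resistant line #3 below and parental line #6 above. The log2 difference was 0.49 (SE 0.17, 95% interval 0.12 to 0.85, limma adjusted p = 0.0624), and a fit blocked on the cell line gave an adjusted p of 0.0113. Between lines the ratio of resistant to parental ran from 1.12 in line #3 to 1.73 in line #7.

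Cdkn1a encodes p21, an inhibitor of cyclin-dependent kinases and the best known effector of p53 in arrest of the cell cycle. Parental cells had 121 to 317 normalized counts (median 226) and resistant cells 177 to 1455 (median 397). Resistant lines #7 and #10 stood above all parental samples by a wide margin, with 1455 and 898 normalized counts against 250 and 203 in their own parental cells, and resistant line #9 followed with 448. In lines #4 and #6 the resistant to parental ratio was 1.35 and 1.09. The log2 difference of 1.16 had an SE of 0.51 and a 95% interval of 0.09 to 2.24. It did not pass the threshold (limma adjusted p = 0.136, or 0.0708 with the cell line as a block). Without line #7 it was 0.89. Ccng1 encodes cyclin G1, a partner of the phosphatase PP2A that acts back on p53 and MDM2. It ranged from 1091 to 1725 normalized counts in parental cells (median 1294) and from 1430 to 2194 in resistant cells (median 1708). The log2 difference was 0.42 (SE 0.16, 95% interval 0.09 to 0.76, limma adjusted p = 0.0796, or 0.0644 with the block). Line #7 again had the largest ratio, 1.90, and line #3 the smallest, 1.01.

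The death and stress genes went different ways in different lines. Eda2r, a receptor of the TNF family, had 0.63 to 25.8 normalized counts in parental cells (median 1.89) and 0 to 230 in resistant cells (median 40.4). In resistant cells of lines #6, #7, #9 and #10 it reached 108, 25.7, 230 and 55.0, against 8.63, 1.23, 25.8 and 1.69 in their parental cells. In lines #3 and #4 it was listed at 0 in resistant cells, and no sample of these lines exceeded 5.57. Eda2r lies on the X chromosome, and lines #3 and #4 are the lines from male mice. Parental cells of lines #3, #7 and #10, at 2.08, 1.23 and 1.69, all lay below the limit of 3 reads in their samples (3.02, 2.31 and 2.45). The part of donor sex in this split was not tested. The log2 difference over the 6 lines was 2.04 (SE 1.38, 95% interval -0.84 to 4.93, limma adjusted p = 0.352). With the cell line as a block its SE was 0.95 and the limma adjusted p 0.128.

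Trp53inp1, whose product takes part in p53-dependent apoptosis and in autophagy, ranged from 111 to 1196 normalized counts in parental and from 80.8 to 1542 in resistant cells. Resistant cells of lines #3, #4, #9 and #10 had 1080, 790, 1542 and 589, between 2.50 and 5.72 times their parental cells. Lines #6 and #7 went the other way, from 128 to 80.8 and from 1196 to 553, and the log2 difference of 1.12 (SE 0.76, 95% interval -0.46 to 2.70, limma adjusted p = 0.352) did not exceed the spread between lines. Phlda3 encodes a repressor of the kinase AKT. Its widest changes were in opposite directions. Phlda3 had 147 normalized counts in parental and 1547 in resistant cells of line #7, but 673 and 90.5 in those of line #4, and the mean log2 difference was 0.10 (SE 0.65, 95% interval -1.25 to 1.45, limma adjusted p = 0.942).

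Perp, a membrane protein gene that serves both in p53-dependent apoptosis and in desmosomes, the junctions between epithelial cells, spanned 166-fold over the 21 samples. In line #9 it had 840 normalized counts in parental and 18080 in resistant cells, a 21.5-fold difference. In lines #3, #4 and #10 it was lower in resistant cells, with 2485, 985 and 386 against 5917, 3621 and 3358 in parental cells. In lines #6 and #7 the ratio of resistant to parental was 1.40 and 0.99. The log2 difference was -0.23 (SE 0.94, 95% interval -2.20 to 1.74, limma adjusted p = 0.905), and it was 0.10 without line #4, 0.35 without line #10 and -1.16 without line #9. The high Perp value of resistant line #9 came from the line with the lowest keratin levels, as Krt19 had 11.3 and Krt8 544 normalized counts in that sample.

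Aen encodes a nuclease that degrades DNA in apoptosis, and Zmat3 an RNA-binding protein. Aen was lower in resistant cells of lines #3 and #4, from 2489 to 854 and from 2324 to 914 normalized counts, and higher in lines #7 and #9, from 827 to 2457 and from 1092 to 1515. The ratio of resistant to parental was 0.99 in line #6 and 0.96 in line #10, and the log2 difference was -0.15 (SE 0.33, 95% interval -0.83 to 0.52, limma adjusted p = 0.800). Zmat3 was lower in resistant than in parental cells in 5 of 6 lines and ranged from 930 to 1406 normalized counts in parental and from 621 to 1721 in resistant cells. Line #9 was the exception with 1169 and 1721, and the log2 difference was -0.26 (SE 0.25, 95% interval -0.78 to 0.27, limma adjusted p = 0.546).

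**Figure D2:**
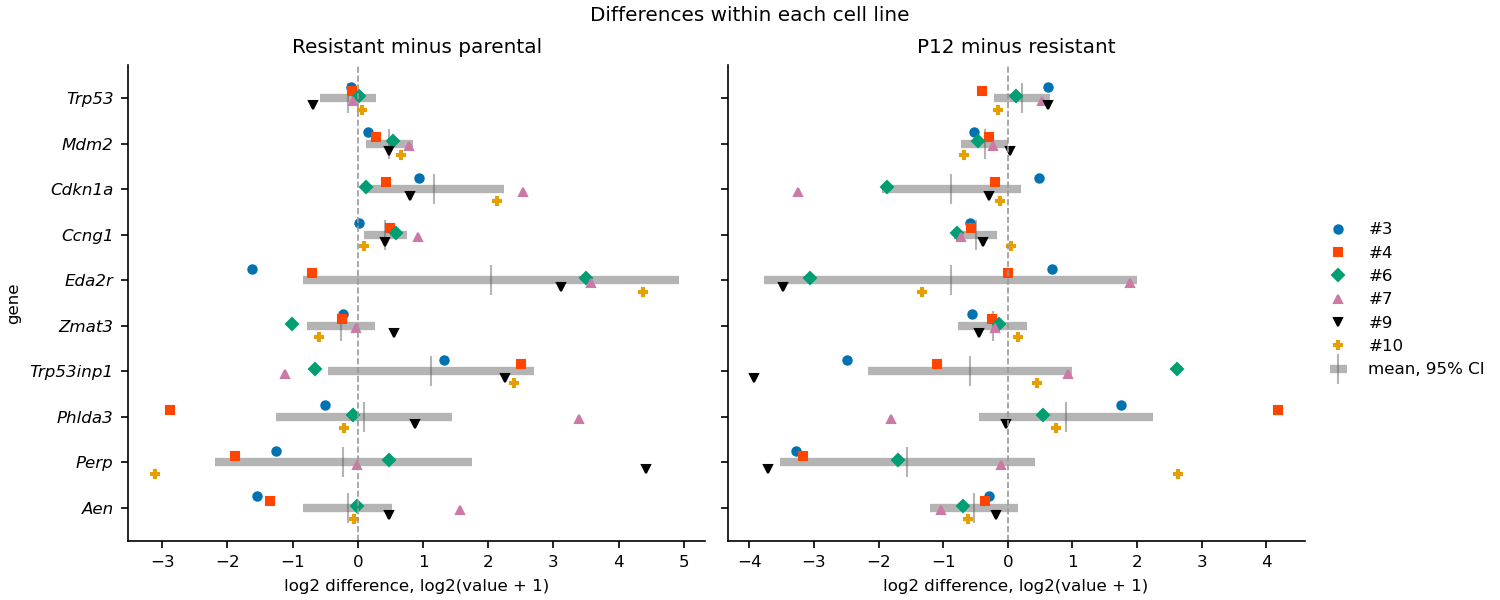
Log2 differences of the 10 genes in each cell line for resistant minus parental (left) and P12 minus resistant (right), with the limma mean and its 95% interval as a gray bar. On the left the 6 lines of Mdm2, Cdkn1a and Ccng1 lie above 0, while those of Phlda3 and Perp lie on both sides. On the right the 6 lines of Aen lie below 0.

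Cells off the drug were compared with resistant cells to see whether these levels went back. Mdm2, Cdkn1a and Ccng1 were lower in P12 than in resistant cells in 5 of 6 lines each, and Aen in 6 of 6, but 0 of the 10 genes passed the limma threshold beside 2.13% of all genes. At an unadjusted p below 0.05 the count was 1 of 10 beside 19.8%. This comparison uses the same resistant samples as the previous one, so opposite signs in both are not independent. A direction shared by all 6 lines was found for 1 of the 10 genes, Aen, and for 16% of all genes. The median log2 difference of the 10 genes was -0.51, and that of all genes was 0.022. Trp53 was higher in P12 in 4 of 6 lines, with a log2 difference of 0.22 (SE 0.21, 95% interval -0.21 to 0.65, limma adjusted p = 0.611). Cdkn1a differed most in line #7, from 1455 to 153 normalized counts, and next most in line #6, from 346 to 93.8. In line #10 it stayed near its resistant level, at 827 against 898, and in line #3 it was higher in P12, at 325 against 233. The mean log2 difference was -0.87 (SE 0.51, 95% interval -1.95 to 0.20, limma adjusted p = 0.377). Ccng1 ranged from 1042 to 1482 normalized counts in P12 cells (median 1232). Its log2 difference was -0.50 (SE 0.16, 95% interval -0.83 to -0.16, limma adjusted p = 0.0723), and that of Mdm2 was -0.36 (SE 0.17, 95% interval -0.72 to 0.0033, limma adjusted p = 0.259). For Zmat3, lower in P12 in 5 of 6 lines, it was -0.24 (SE 0.25, 95% interval -0.76 to 0.29, limma adjusted p = 0.674).

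Among the death and stress genes, Perp in line #9 went from 18080 to 1377 normalized counts and Trp53inp1 from 1542 to 100, while Phlda3 stayed at 2097 against 2134. In lines #3 and #4 Perp was lower still off the drug, with 255 and 109 normalized counts, which are the lowest values of the 21 samples. Line #10 alone had more Perp in P12 than in resistant cells, 2407 against 386. Phlda3 of line #4 was 18.4 times higher in P12 than in resistant cells, at 1668 against 90.5 normalized counts. Eda2r of line #7 was also higher in P12, at 98.2 against 25.7, and that of lines #6 and #9 was lower, at 12.1 and 19.7. In the limma fit, which does not pair the lines, the 95% intervals of all 5 death and stress genes in this comparison included 0. Within lines, Aen differed by -1.03 to -0.18 (mean -0.53, SD 0.32). Eda2r, Trp53inp1, Phlda3 and Perp each went both ways between lines.

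P5 cells showed the levels at an earlier passage in 3 lines. None of the 10 genes passed the limma threshold against resistant cells, beside 0.378% of all genes, and 1 of 10 had an unadjusted p below 0.05 beside 15.4%. In all 3 lines Trp53 was higher and Ccng1 and Zmat3 lower, and 29.1% of all genes shared a direction in the 3 lines. The gene with the unadjusted p below 0.05 was Ccng1, with 870, 1555 and 1409 normalized counts in P5 of lines #3, #7 and #9 against 1749, 2194 and 1666 in their resistant cells, and P5 minus resistant within these lines averaged -0.58 on the log2 scale (SD 0.39). The limma fit sets the 3 P5 samples against all 6 resistant samples and gave -0.50 (SE 0.20, limma adjusted p = 0.220). Perp and Trp53inp1 of line #9 had already reached 834 and 189 normalized counts at P5. Cdkn1a of line #7 lay in between, with 347 at P5 on the way from 1455 to 153. Against parental cells, 0 of the 10 genes passed in P12 beside 0.114% of all genes, and 1 of 10 had an unadjusted p below 0.05 beside 15.3%. That gene was Aen, with a log2 difference of -0.68 (SE 0.33, 95% interval -1.36 to -0.0025, limma adjusted p = 0.325). Phlda3 was higher in P12 than in parental cells in 6 of 6 lines, from 443 to 2097 normalized counts (median 1337) against 147 to 1164 (median 683). The limma fit, which does not pair the lines, gave a log2 difference of 1.00 (SE 0.65, 95% interval -0.35 to 2.35, limma adjusted p = 0.470). Within lines the difference ran from 0.47 to 1.58 (SD 0.45). A shared direction in all 6 lines was found for 1 of the 10 genes in this comparison and for 13.4% of all genes.

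To read the targets line by line, the log2 values of the 9 targets were centred on their means over the 21 samples and averaged for each sample, a description for which no test was run. Parental cells lay close together, between -0.47 in line #4 and 0.06 in line #6. Resistant cells spread much wider, with 1.47 in line #9, 0.95 in line #7, 0.45 in line #6, 0.28 in line #10, -0.29 in line #3 and -0.84 in line #4. Resistant lines #9, #7, #6 and #10 lay above and resistant line #4 below all 6 parental values, and resistant line #3 lay among them. In line #9 each of the 9 targets was higher in resistant than in parental cells, and in line #7 6 of 9 were, whereas lines #3 and #4 had 4 of 9. In P12 cells the mean was 0.45 in line #7, 0.43 in line #10, 0.09 in line #9, -0.17 in line #6, -0.83 in line #3 and -1.03 in line #4. P5 cells had 0.69 in line #7, 0.08 in line #9 and -0.60 in line #3. Eda2r, the gene with the widest spread, weighs heavily in this mean. Without it, resistant lines #9 and #7 were still the 2 highest samples, at 1.09 and 0.89, and P12 line #4 was still the lowest at -0.73, but resistant lines #6 and #10 then had 0.08 and 0.01 and no longer lay above all parental values, of which line #3 was highest at 0.23. Resistant line #3 moved from -0.29 to 0.09 and parental line #3 from the 11th to the 5th place. When Eda2r was kept and each gene was divided by its SD over the 21 samples, resistant lines #6 and #10 had 0.41 and 0.31. Both then lay above all parental values, of which line #3 was highest at 0.18. Resistant line #4, at -0.54, lay below all of them.

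**Figure D3:**
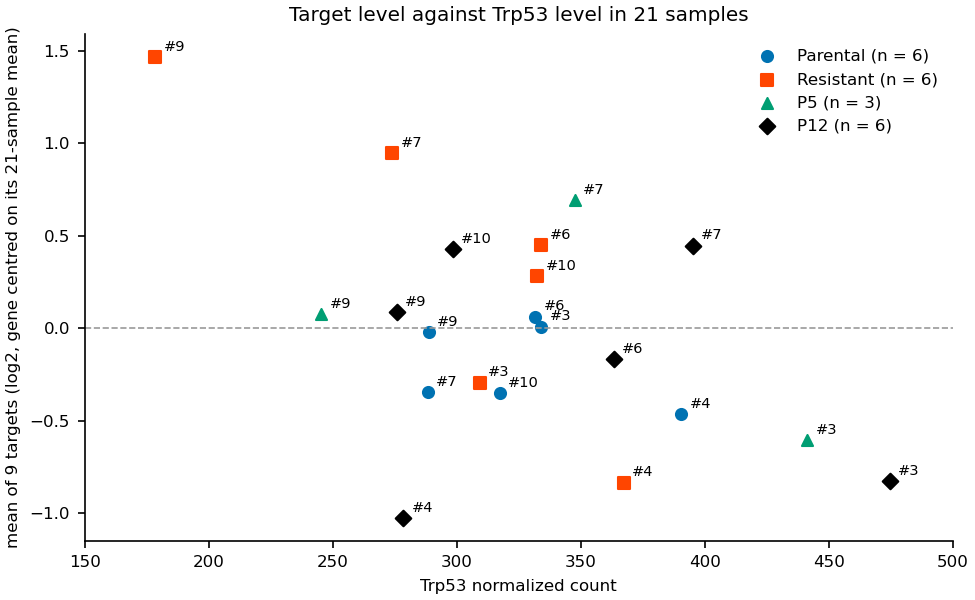
Mean of the 9 targets (log2, each gene centred on its mean over 21 samples) against the Trp53 normalized count of the same sample, with the state by color and symbol and the cell line beside each point. Resistant line #9, with the lowest Trp53 value of 178, had the highest target mean of 1.47, and P12 line #3, with the highest Trp53 value of 475, had -0.83.

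Differences between the lines were tested with the state as a covariate, using a limma F test over the 5 line coefficients. None of the 10 genes passed an adjusted p below 0.01 with a range of more than 1 between lines, beside 7.62% of all genes, and 3 of 10 had an unadjusted p below 0.05 beside 41% of all genes. Eda2r came nearest, with a fitted range of 4.74 on the log2 scale between lines #9 and #4 (adjusted p = 0.0304). Line #9 came from a female and line #4 from a male mouse. For this X-linked gene, differences between lines include any effect of donor sex, which was not tested. Mdm2 (adjusted p = 0.0618, range 0.56) and Zmat3 (adjusted p = 0.0563, range 0.95) were the other two. Over the parental, resistant and P12 samples, the line accounted for a median of 32.4% of the sum of squares of the 10 genes, the state for 21.7% and the rest for 43.8%. The medians of all genes were 35.8%, 19.8% and 36.6%. For Ccng1 the state held 55.4%, the largest state share of the 10 genes, and for Eda2r the line held 63.4%, the largest line share. For Trp53inp1 and Aen the rest, which holds changes between states that differ from line to line, was 61.3% and 60.7%.

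Over the 21 samples most correlations between targets were low and positive, and those of Trp53 RNA with the targets were negative. Of the 36 pairs of targets, 30 had a positive Pearson r, with a median of 0.23 and 5 above 0.5, and the highest was 0.59 for Perp with Aen. The lowest was -0.38 for Trp53inp1 with Phlda3. Trp53 had a negative r with each of the 9 targets, from -0.17 with Mdm2 to -0.67 with Zmat3, with a median of -0.30. These are descriptions over samples that share 6 lines and a common normalization, and no p is given for them. The same counts were not made for other genes, so they cannot be read as particular to the p53 genes. Trp53 also varied little between samples. The 3 genes most like Trp53 by Pearson r of log2 values over the 21 samples were Arid3b (0.79), Gm44586 (0.79) and 9230111E07Rik (0.77). For Cdkn1a they were D730003I15Rik (0.70), Tsc22d3 (0.69) and Cpne5 (0.69).

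Beyond the 10 genes, 39 genes of the pathway were set out by role, namely p53 family members, regulators of p53 and further targets in the cell cycle, apoptosis, DNA repair, metabolism and autophagy, and secretion. Of these, 38 passed the filter and Trp73 did not. In resistant against parental cells 5 of the 38 passed the limma threshold, beside 5.3% of all genes, with 2 higher (2.57% of all genes) and 3 lower (2.73%). The other 33 did not, and the median of the 38 was a log2 difference of 0.10. The 5 genes were Fas, Dram1, Gls2, Tnfrsf10b and Plk3. Their parental and resistant groups did not overlap, beside 5.99% of all genes. The threshold picked them in these same samples, so this is no separate support. By role, 1 of the 8 apoptosis targets rose and 1 fell, 1 of the 6 metabolism and autophagy targets rose and 1 fell, and 1 of the 6 cell cycle targets fell. None of the 8 regulators, the 5 DNA repair targets or the 4 secreted targets passed. At an unadjusted p below 0.05 the count was 13 of 38 genes beside 29.2% of all genes.

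Fas and Tnfrsf10b are the 2 death receptors among these targets, and they moved in opposite directions. Fas rose, with 1.50 to 34.1 normalized counts in parental cells (median 8.81) and 57.8 to 690 in resistant cells (median 142), a log2 difference of 4.30 (SE 0.85, limma adjusted p = 0.00239). The lowest parental value, in line #10, was below that sample's limit of 3 reads, 2.45. Over the processing alternatives the Fas difference ranged from 3.37 to 4.76. Tnfrsf10b, a receptor for TRAIL, fell, with 2138 to 4737 in parental (median 2726) and 1127 to 1565 in resistant cells (median 1292), a log2 difference of -1.17 (SE 0.23, limma adjusted p = 0.00245). The groups of both receptors lay clear of each other. Dram1, a lysosomal gene of autophagy, rose, with 5.58 to 116 in parental (median 50.3) and 246 to 559 in resistant cells (median 496), a log2 difference of 3.45 (SE 0.69, limma adjusted p = 0.00246). Gls2, a glutaminase of mitochondria, fell, with 361 to 1665 in parental (median 601) and 21.9 to 216 in resistant cells (median 91.2), a log2 difference of -2.90 (SE 0.52, limma adjusted p = 0.00113). Plk3, a kinase of the stress response, fell, with 354 to 511 in parental (median 432) and 69.1 to 250 in resistant cells (median 161), a log2 difference of -1.51 (SE 0.30, limma adjusted p = 0.00258). All 5 moved in the same direction in 6 of 6 lines, which follows from groups without overlap. The calls depended on single lines. Fas was not called without line #4 or #10, Dram1 without #3, #6 or #7, Gls2 without #3 or #6, Plk3 without #9 or #10 and Tnfrsf10b without #3 or #4, at adjusted p values between 0.0101 and 0.0245.

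**Figure D4:**
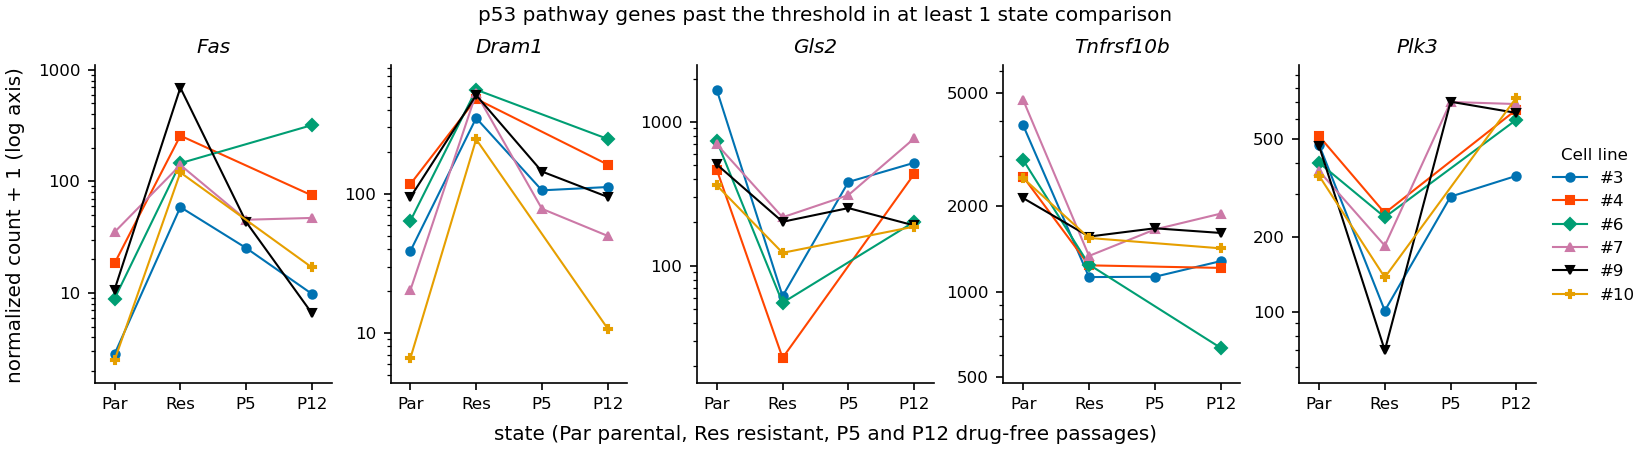
Normalized counts plus 1 (log axis, own scale in each panel) of the 5 pathway genes that passed the threshold, by state and cell line. Fas and Dram1 were higher and Gls2, Tnfrsf10b and Plk3 lower in all 6 resistant samples than in any parental sample.

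After 12 drug-free passages only Plk3 among the 38 genes passed against resistant cells, beside 2.13% of all genes, with 353 to 731 normalized counts (median 643) and a log2 difference of 2.00 (SE 0.30, limma adjusted p = 0.000693). With the cell line as a block 3 passed, beside 4.52% of all genes: Plk3, Dram1 (log2 difference -2.46, adjusted p = 0.00132, 0.0368 without the block) and Cdkn2a (log2 difference 1.06, adjusted p = 0.00124, 0.0290 without the block). Against parental cells 0 of the 38 passed in P12 with limma, beside 0.114% of all genes. At an unadjusted p below 0.05 the count was 7 of 38 beside 15.3% of all genes. With the block Tnfrsf10b passed (log2 difference -1.23, limma adjusted p = 0.00854, 0.0197 without the block) beside 0.523%. Tnfrsf10b had 634 to 1885 normalized counts in P12 cells, below every parental sample. Against resistant cells 0 of the 38 passed in P5 with limma, beside 0.378% of all genes. At an unadjusted p below 0.05 the count was 8 of 38 beside 15.4% of all genes. With the block Plk3 passed (log2 difference 2.00, limma adjusted p = 0.00925) beside 0.611%.

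Of the regulators, Cdkn2a encodes p16 and, in another reading frame, p19ARF, which blocks MDM2, while MDM4 binds p53 and blocks its activity. Cdkn2a was lower in resistant than in parental cells in 6 of 6 lines, with 2267 to 9552 normalized counts (median 3396) against 4908 to 10248 (median 5759). Its log2 difference was -0.71 (SE 0.28, limma adjusted p = 0.0968, or 0.00795 with the cell line as a block), which is not past 1 in size. In P12 it was higher than in resistant cells in 6 of 6 lines, at 5689 to 10122 (median 8312). Line #9 changed least, from 10248 to 9552 and 10122. A single value cannot part the p16 and p19ARF transcripts. Mdm4 was lower in resistant cells in 5 of 6 lines, with 2028 to 7702 (median 2725) against 4785 to 9966 (median 5768). The log2 difference of Mdm4 was -0.79 (SE 0.34, limma adjusted p = 0.129, or 0.0198 with the block), and line #3 was higher, 7543 against 5873.

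The other members of the p53 family were scarce. Trp73 was listed at 0 in 17 of 21 samples and reached 3.69 normalized counts at most. Trp63, whose product p63 shares many binding sites with p53 and is known to activate Perp in stratified epithelia, had 0.57 to 2.16 normalized counts in parental cells, below the limit of 3 reads in all 6 samples. It had 33.5 in resistant, 98.1 in P5 and 73.0 in P12 cells of line #9, and 16.1, 22.7 and 41.9 in P12 of lines #3, #4 and #6. In lines #7 and #10 it stayed at 3.81 or below. The P12 minus parental difference was 2.82 on the log2 scale (SE 0.99, limma adjusted p = 0.182; 0.0456 with the block). Its size depends on the pseudocount, as it was 1.49 with a pseudocount of 8 and 3.13 with 0.5. Values were higher in P12 than in parental cells in 6 of 6 lines, beside 13.4% of all genes that shared a direction. In line #10 the P12 value of 1.73 was itself below the limit of 3 reads, which was 2.49 in that sample. In line #9, with 1 sample per state, Perp was high in the resistant sample only and Trp63 in the resistant, P5 and P12 samples. A link between the 2 genes was not tested. The secreted targets Gdf15 and Igfbp3 were the other pathway genes with a 0, both in resistant line #7. Gdf15 ranged up to 161 and Igfbp3 up to 27244 normalized counts, and neither passed the threshold in any comparison of states.

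**Figure D5:**
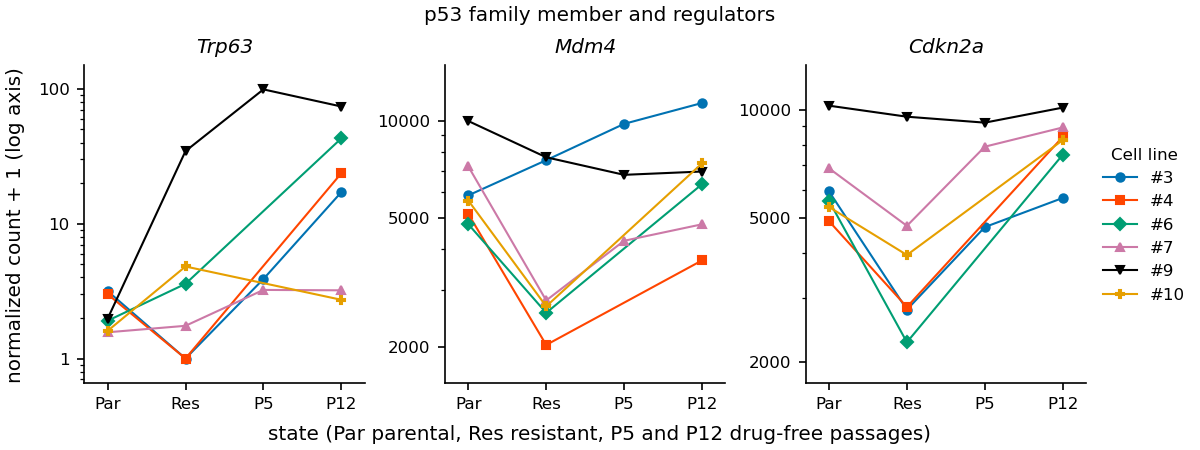
Normalized counts plus 1 (log axis, own scale in each panel) of Trp63, Mdm4 and Cdkn2a by state and cell line. Cdkn2a was lower in resistant than in parental cells of every line, and Trp63 exceeded 10 only in line #9 after resistance and in P12 of lines #3, #4 and #6.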

How the data were processed

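RNA of 21 samples was sequenced by the authors with the stranded TruSeq mRNA kit. The authors quantified transcripts with salmon 0.12, summed them to genes and deposited the values after DESeq2 1.18 normalization, so the unit is a signal and not whole reads (mm10 per the labels). In the spacing of low values, 40.0% to 67.4% fell on whole steps (tolerance 0.02), too few to recover reads, and a count test was not run. The log2 scale used a pseudocount of 1. A gene was tested if 3 or more samples reached a value of 10, which kept 19300 genes in one limma 3.58.1 fit of the 4 states (lmFit, eBayes with trend, R 4.3.3) with Benjamini-Hochberg adjustment over all of them. limma was tested on simulated data. States of the same line were paired by the line number in the labels. The cell line as a block was an alternative: with state means removed, the mean r across genes was 0.40 between same-line samples and -0.080 between lines. The paper names more than 1 sequencer without assigning samples, so no within-batch values could be given. Genes named in the text were the 10 genes, Trp63, Trp73, Mdm4, Cdkn2a, pathway genes past the threshold or with a 0, and the 3 genes most like Trp53 and Cdkn1a. Cop1 was matched to the row Rfwd2 by a RefSeq synonym. The genes and lists were chosen with earlier results of these data known, and the lists were written from general knowledge. Of the marker lists for leukocytes (Adgre1 was not matched), endothelial and acinar cells, the highest sums in any sample were 413, 886 and 931. Python 3.11.15 with pandas 2.3.3 and matplotlib 3.10.9 were used. A further allele of the genotype, carried by all samples, is not reported here.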

Additional observations from a re-analysis of the deposited data

Results flagged for a closer look

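For 18 genes (the 10 p53 genes and Trp63, Mdm4, Cdkn2a, Fas, Dram1, Gls2, Tnfrsf10b and Plk3), the lowest and highest of the 6 samples of each state were compared with their nearest neighbour on the log2 scale by Dixon's ratio. Of 54 groups, 4 had a sample set apart, where chance flags about 1 in 20 groups. P5, with 3 samples, was not tested. Trp53inp1 in resistant line #6 had 80.8 normalized counts, below the next lowest of 553. Phlda3 in parental line #7 had 147, below the next of 584, and Perp in parental line #9 had 840, below the next of 3358. Plk3 in P12 line #3 had 353, below the next of 595.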

How the results depend on the processing

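Alternatives were pseudocounts of 0.5 and 8, no filter, a mean of at least 100, upper quartile scaling, no trend, an adjusted p below 0.05, the cell line as a replicate block, fits of only the states compared, omission of each line, and no P5 samples. The count of 0 of the 10 p53 genes held in all of them for each comparison of states. Between cell lines 1 gene passed at an adjusted p below 0.05. For the 38 pathway genes, an alternative set chosen after seeing the data, the resistant minus parental count of 5 ranged from 2 to 4 without 1 line and was 6 at an adjusted p below 0.05. For P12 minus resistant, 1 became 4 at an adjusted p below 0.05, 3 with the block and 0 with the compared states alone, and 1 to 2 without 1 line. For P12 minus parental, 0 became 1 at an adjusted p below 0.05 and 1 with the block. For P5 minus resistant, 0 became 1 with upper quartile scaling, at an adjusted p below 0.05 and with the block. The block changed no call of the 10 genes.

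Signs that changed belonged to differences that had not passed, and the cause was not tested. Without 1 line, log2 differences ranged for resistant minus parental from -0.56 to 0.69 (Phlda3), -1.16 to 0.35 (Perp), -0.50 to 0.12 (Aen) and -0.12 to 1.04 (Trp63). They ranged for P12 minus resistant from -1.23 to 0.086 (Trp53inp1) and -0.18 to 0.11 (Tnfrsf10b, 0.025 with upper quartile scaling), and for P12 minus parental from -0.011 to 0.19 (Trp53), -0.056 to 0.70 (Cdkn1a), -0.13 to 0.023 (Ccng1) and -0.16 to 0.15 (Mdm4). For P5 minus resistant they ranged from -0.20 to 0.022 (Mdm2), -0.91 to 1.10 (Eda2r, -0.44 with a pseudocount of 8 and -0.25 with the block), -0.33 to 0.18 (Zmat3) and -1.60 to 0.046 (Trp53inp1), and Tnfrsf10b was -0.027 with the block.

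With 6 lines, 1 sample per line and state and intervals of up to 5.77 log2 units, differences of several fold in Eda2r, Perp, Phlda3 and Trp53inp1 could not be told from 0 in the limma fit without the block. That fit leaves the pairing of lines aside. With the block, Eda2r resistant minus parental had an unadjusted limma p of 0.0476 and an adjusted p of 0.128. Within lines, Phlda3 P12 minus parental lay above 0 throughout, from 0.47 to 1.58. The depth could not show Trp73, or Trp63 in parental cells, above 3 reads.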
